A study of Mus musculus with 55 samples.

Results

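The genes of the nuclear pore and of nuclear transport were followed through exit from mitosis in mouse embryonic stem (ES) cells. They were taken by name, as every listed gene whose symbol begins with Nup, Ipo or Tnpo and a digit, with Kpna or Kpnb, or with Xpo and a digit or t. Tpr, Ndc1, Pom121, Rae1, Seh1l, Sec13, Aaas, Ran, Rcc1, Rangap1 and Ranbp2 were added. This gave 51 genes, the same 51 among the 9911 genes listed for the CCNA-GFP line and among the 10237 genes listed for the CTCF-AID line. The rule uses names alone, but a gene had to be listed, which the authors made depend on its TPM in asynchronous and post-mitotic samples of these lines. Unspliced transcripts (pre-mRNA) were quantified by RNA-seq of ribosome-depleted RNA as TPM. By definition TPM is a share of all transcripts in a library after correction for transcript length. The deposited values are whole multiples of a step that differs between libraries (0.0184 to 0.0381 TPM). No source names the step factor behind it, so they may not be plain shares, and fold changes as deposited carry it. Pre-mRNA follows recent transcription more closely than mature mRNA does.

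Both lines are E14Tg2a mouse ES cells grown in serum with LIF. CCNA-GFP cells carry a cyclin A reporter of the cell cycle and gave 19 libraries. These were 3 of asynchronous cells, 3 of mitotic cells, 2 each at 20, 30, 40, 60, 90 and 120 min after release, and 1 at 50 min. In CTCF-AID cells, 1 clone, the genome organiser CTCF is tagged with an auxin-inducible degron, so that the auxin IAA removes the protein. That line gave 18 libraries without IAA (-IAA) and 18 with it (+IAA), in each arm 3 of mitotic cells, 3 of asynchronous cells and 2 each at 20, 40, 50, 60, 90 and 120 min. In both lines mitotic cells were obtained with the CDK1 inhibitor RO-3306 (10 µM, 4 h), then nocodazole (50 ng/ml, 4 h) and shake-off, so every cell sampled after release had gone through both drugs. IAA was given at 0.5 mM for the last 2 h of nocodazole and kept during release, and asynchronous +IAA cells had it for 4 h. The Ctcf pre-mRNA cannot check the loss of the protein. It lay between 6.11 and 9.13 TPM in asynchronous -IAA cells and between 7.52 and 10.9 TPM in +IAA cells.

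The nuclear pore is a ring of nucleoporins set in the nuclear envelope. The Y complex forms its outer rings, the inner ring anchors the central channel, the membrane ring holds it in the envelope, and filaments and a basket reach into cytoplasm and nucleus. Importins carry cargo in and exportins carry it out. The small GTPase Ran, charged with GTP on chromatin by Rcc1 and discharged in the cytoplasm with the help of Rangap1, gives the direction. In animal cells the envelope breaks down in mitosis and pores are rebuilt as the cell divides, mostly from protein that was already there. Several of these proteins, among them the Y complex, Ran, Rcc1 and importin beta, also act on the mitotic spindle or kinetochores.

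The summed level of all listed pre-mRNAs lay between 13747 and 42576 TPM per library in CCNA-GFP and between 17702 and 43370 TPM in CTCF-AID. It was lower in mitosis than at 60 min in every library, so changes are given both as deposited and after scaling each library to the same total. The 51 genes held 0.847 to 1.17% of that sum. TPM values do not give the read depth, which is unknown. Of 8 ES cell markers 7 were listed, with a sum of 28.2 to 121 TPM per library over both lines. None of 4 primitive endoderm markers was listed. T and Eomes (mesoderm) summed to at most 5.55 TPM, Pax6 and Neurod1 (neural) to at most 13.8 TPM, and Col1a1 and Thy1 (fibroblast), listed in CTCF-AID alone, to at most 3.42 TPM.

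Most pore and transport pre-mRNAs were above their mitotic level from 60 min on in CCNA-GFP cells, as most genes were. In bulk libraries fewer cells of a kind and less RNA per cell cannot be told apart. At 20 min none was called in limma (adjusted p under 0.05 over all genes, replicate as a block), nor was any of 9911 genes. Of the members 0 had an unadjusted p under 0.05, against 253 of the 9911 genes. At 30 min none was called, with 6 at an unadjusted p under 0.05 as were 11.5% of all genes, and 0.303% of all genes were called higher. At 40 min 21 of 51 were called higher and none lower, against 49.3% of all genes called higher and 0.0404% lower, and leaving out a replicate left 10 without replicate 1 (26.4% of all genes) and 13 without replicate 2 (42.2% of all genes). Without the replicate block 5 were called higher at 40 min (23.8% of all genes). For single genes given with values, the adjusted p of that fit is added where it ends the call. At 60 min 48 were called higher and none lower, against 88.3% and 0.515% of all genes. The exceptions were Ipo7, Nup210 and Nup37. The tables list genes by their levels after mitosis or in asynchronous cells, never in mitosis itself, so a gene listed for its post-mitotic level alone was chosen through the stages where it is high. In CCNA-GFP 1218 of 9911 genes (12.3%) had a mean of 0.5 TPM or less in asynchronous cells. Nup62cl, at 0.325 TPM in mitosis, 0.498 in asynchronous cells and 0.915 at 60 min, was the one member among them and is counted with the 48, and of the other 50 members 47 were called higher. In CTCF-AID no member was at or under that level. At 90 min 50 were called higher (89.1% of all genes) and none lower (0.948%), and at 120 min 48 and none (90.2% and 0.656%). The members' median log2 fold change on the log2(TPM + 1) scale, which understates the change of low genes, was 0.25 at 40 min, then 0.95 by 60 min, and 0.88 and 0.80 at the last stages of 90 and 120 min. Over all genes these medians were 0.26, 0.79, 0.73 and 0.68.

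In -IAA cells of the CTCF-AID line 22 members were called higher (63.3% of all genes) and 5 lower (3.21%) at 40 min, 35 and 4 at 50 min (79.1% and 4.56%), and 40 and 3 at 60 min (84.8% and 2.7%). At 90 min 29 were called higher (74.8%), or 17 without replicate 3 (50.4% of all genes), and 4 lower (3.37%). At 120 min 26 were called higher (69.6%), or 17 without replicate 2 (50.8% of all genes), and 4 lower (3.15%). The median log2 fold change was 0.60 at 60 min, against 0.63 over all genes. In +IAA cells 21 members were called higher (58.7%) and 4 lower (3.87%) at 40 min, 34 and 5 at 50 min (78.2% and 5.37%), 40 and 2 at 60 min (82.2% and 4.04%), 30 and 2 at 90 min (73.8% and 4.41%), and 27 and 3 at 120 min (68.2% and 4.42%). The count higher at 120 min was 17 without replicate 2 (41.5% of all genes). At 20 min none was called in either arm (0.0% and 0.0% of all genes higher). An unadjusted p under 0.05 was reached by 0 members (-IAA) and 1 (+IAA), against 397 and 149 of 10237 genes. Without the block the counts higher were 14 at 40 min (43.5% of all genes) and 16 at 120 min (42.3%) in -IAA and 9 at 40 min (40.0%) in +IAA cells, and at most 3 members were called lower at any stage from 40 to 120 min, with 1.42 to 2.62% of all genes. Across the members the log2 fold changes at 60 min ran in much the same order in CCNA-GFP and -IAA cells (Spearman's rho 0.89 over 51 genes, 0.86 over the 9574 genes both tables list). This is a description, since the genes of a library share its depth and scale.

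**Figure D1:**
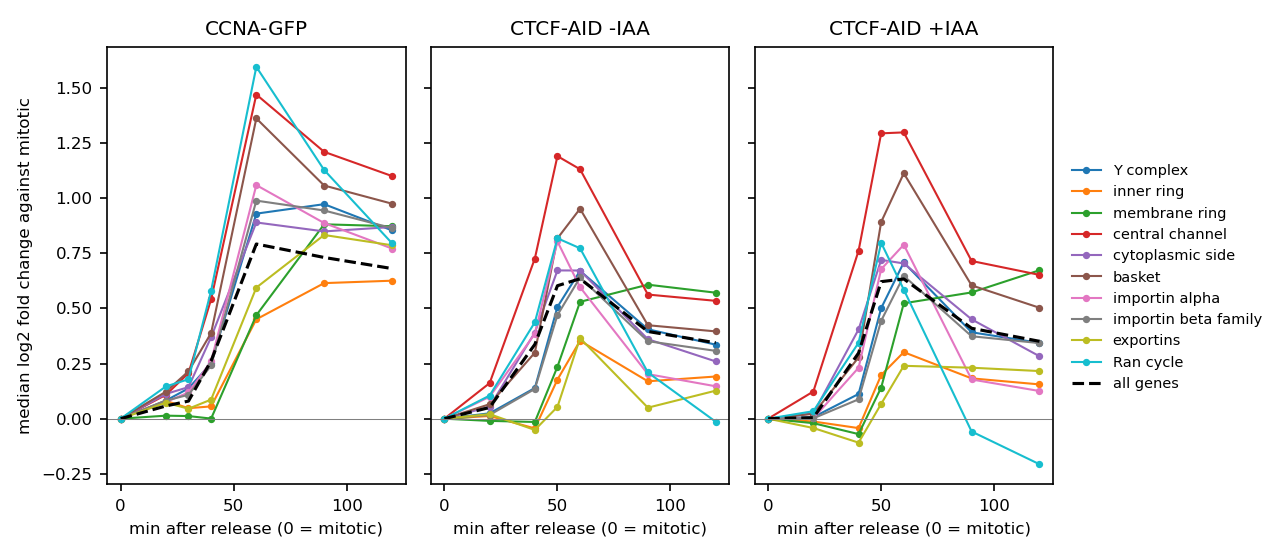
Median log2 fold change of pre-mRNA against mitosis (vertical axis, on the log2 scale of TPM + 1) by minutes after release (horizontal axis, 0 is mitotic) for the genes of each role, with all listed genes as a dashed line, in the 3 series. At 60 min the central channel and the basket lie above all genes in each panel, and the inner ring, membrane ring and exportins lie below.

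Because the sum of all pre-mRNAs differed between stages, the direction of many members depended on scale. With each library at the same total, the median of all genes at 60 min moved by -0.77 in CCNA-GFP, -0.58 in -IAA and -0.57 in +IAA cells. This scaling removes the rise of the total after mitosis. A member called lower at the same total thus rose less than the total did, and need not have fallen as deposited. On that scale 15 members were called higher and 24 lower at 60 min in CCNA-GFP (36.4% and 33.3% of all genes), 11 and 27 in -IAA (39.4% and 31.1%), and 12 and 28 in +IAA cells (40.7% and 33.2%). There 9 members were called higher in all 3 series, namely Nup62, Nup50, Nup54, Nup43, Ran, Kpna4, Ipo4, Ipo9 and Tnpo2, as were 29.9% of the genes that both tables list. Another 21 were called lower in all 3 (25.2% of those genes), among them Kpnb1, Nup98, Nup153, Nup93, Ndc1, Rangap1, Ipo7, Nup37, Nup210 and Ipo11. The log2 fold change at 60 min, called or not, turned from above to below 0 for 28 members in CCNA-GFP (44.53% of all genes), 31 in -IAA (38.06%) and 31 in +IAA cells (35.96%). Among the 20 genes described one by one, these were Rangap1, Kpnb1, Xpo1, Nup98, Nup153, Nup93, Ndc1, Ipo7, Nup37 and Ipo11 in CCNA-GFP, Rcc1, Rangap1, Kpnb1, Kpna2, Xpo1, Nup98, Nup153, Ranbp2, Nup93, Ndc1 and Ipo11 in -IAA and Rcc1, Rangap1, Kpnb1, Kpna2, Xpo1, Nup98, Nup153, Nup93, Ndc1 and Ipo11 in +IAA cells. As deposited, 40 members were called higher in all 3 series and none lower. The share of all genes called so in all 3 series is not given here. By series, 8749 of 9911 genes in CCNA-GFP and 8677 and 8419 of 10237 in -IAA and +IAA cells were called higher. At the other stages the balance moved too. At the same total, the calls against mitosis in CCNA-GFP were 5 higher (23.7%) with 28 lower (31.3%) at 40 min, 12 higher (31.8%) with 19 lower (26.2%) at 90 min and 13 higher (28.7%) with 22 lower (23.5%) at 120 min, with shares of all genes in parentheses. In -IAA cells they were 8 higher (33.3%) with 35 lower (36.7%) at 40 min, 11 higher (40.7%) with 30 lower (33.6%) at 50 min, 10 higher (34.5%) with 30 lower (25.6%) at 90 min and 10 higher (32.0%) with 29 lower (25.9%) at 120 min. In +IAA cells they were 7 higher (33.2%) with 36 lower (38.6%), 10 higher (41.0%) with 29 lower (35.5%), 10 higher (36.8%) with 28 lower (27.4%) and 14 higher (33.5%) with 30 lower (28.7%) at these stages. All counts by role and single values that follow are as deposited, with the step factor left in. Dividing each library by that factor gave lower medians of the members at 60 min in each series, listed at the end. The 51 genes together held 0.955 to 0.982% of the total in CCNA-GFP mitotic libraries and 0.878 to 0.910% at 60 min, and 1.10 to 1.17% and 0.942 to 0.981% in -IAA libraries, with no overlap in either line.

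**Figure D2:**
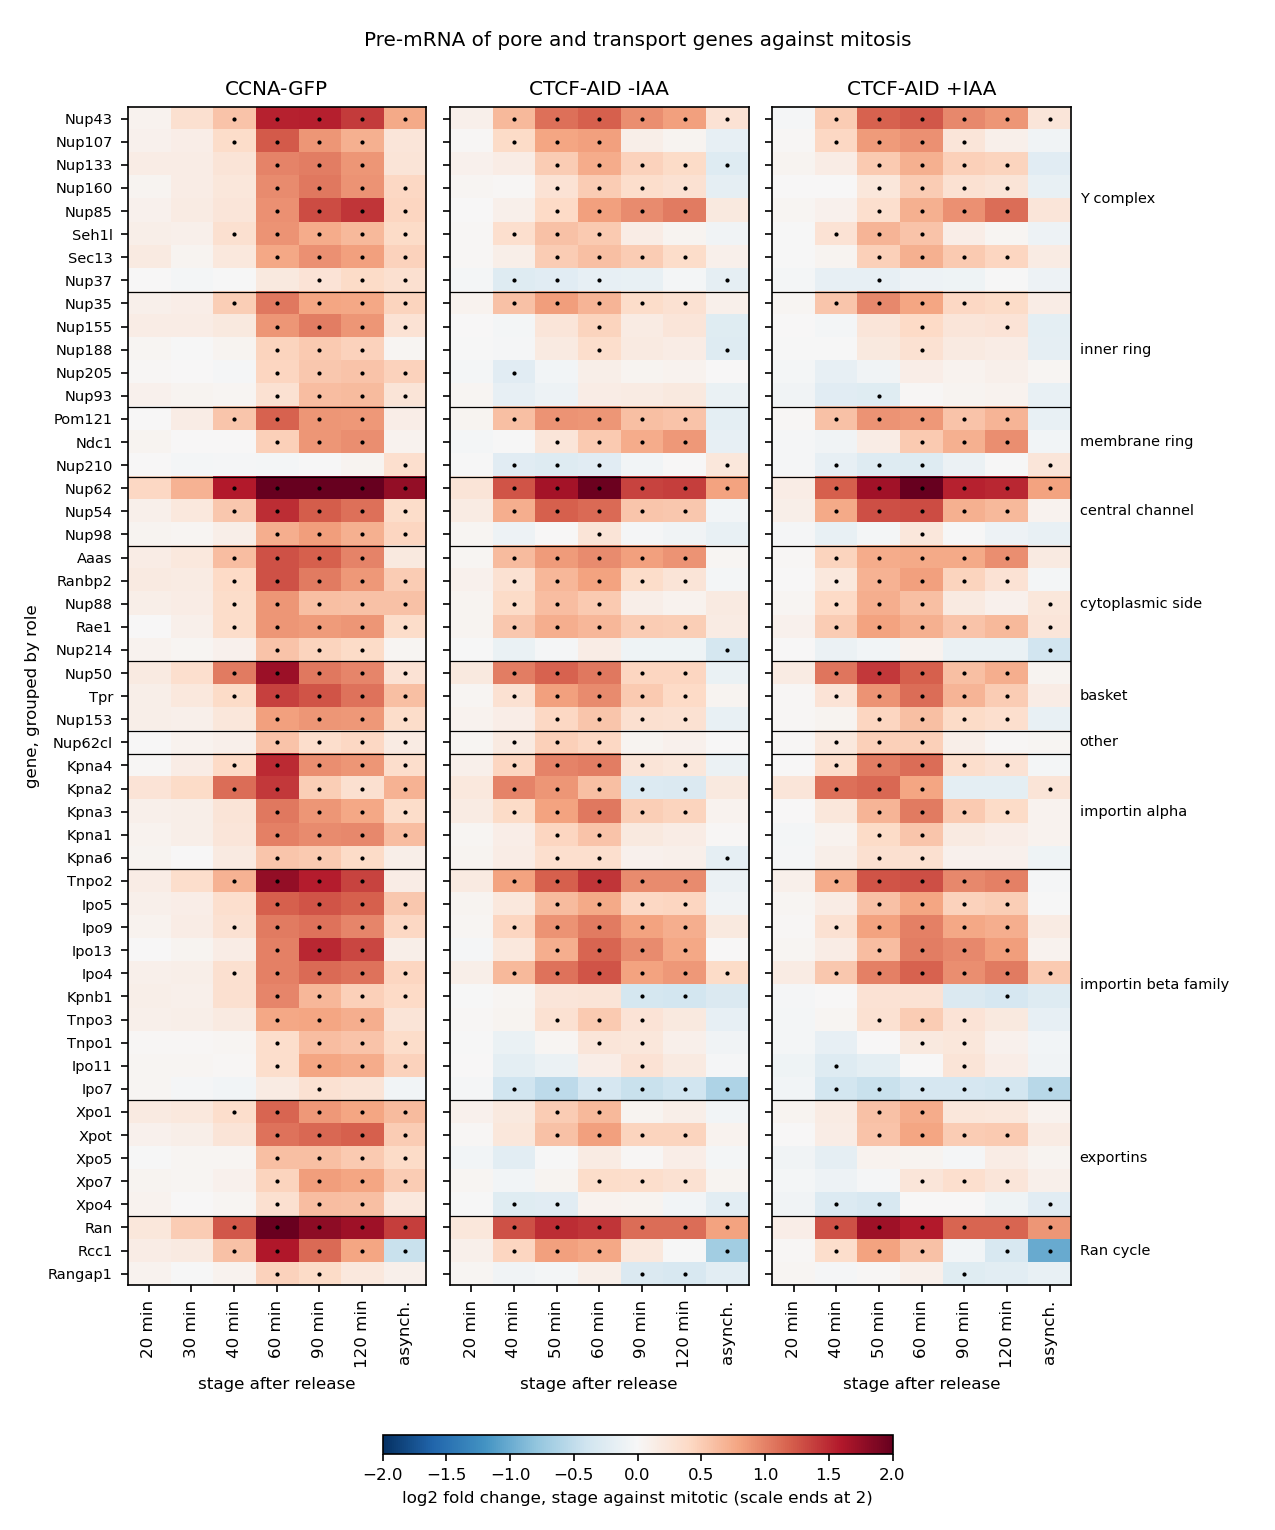
Log2 fold change of each of the 51 genes (rows, grouped by role) at each stage against mitotic cells (columns) in the 3 series, with red for higher, blue for lower and a dot where limma called it at an adjusted p under 0.05. Nup62 and Ran are the darkest rows, the 20 min columns hold no dot, and the single 50 min library of CCNA-GFP cells has no column.

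The central channel and the basket had the highest median log2 fold changes at 60 min among the parts of the pore, 1.47 and 1.36 in CCNA-GFP cells against 0.79 over all genes. Each of these parts held 3 genes, so each median is the value of its middle gene, and the channel genes lay far apart. Nup62, a channel nucleoporin whose phenylalanine-glycine repeats form part of the permeability barrier, had the largest of all members. Its pre-mRNA stood at 0.348, 0.797 and 1.15 TPM in the 3 CCNA-GFP mitotic libraries, 1.22 and 1.04 at 20 min, 4.42 and 3.22 at 40 min, 12.4 and 7.25 at 60 min, 11.4 and 13.3 at 90 min and 9.98 and 9.92 at 120 min. Every library from 30 min on lay above all mitotic libraries. At 60 min the log2 fold change was 2.72 ± 0.21 (SE, adjusted p = 4.5e-10). In -IAA cells Nup62 went from 2.46, 1.56 and 2.46 TPM in mitosis to 10.4 and 9.91 at 60 min (1.96 ± 0.20, adjusted p = 4.3e-09), and in +IAA cells from 2.15, 1.67 and 1.96 to 11.0 and 8.74 TPM (2.02 ± 0.20, adjusted p = 2.4e-09). Nup62 (chr7:44816088-44830812, plus strand, 14.7 kb, GRCm38) lies for 98.0% of its length within Il4i1 on the same strand, so reads of the pair could be split between them and both levels are uncertain. Il4i1 was at a mean of 2.87 TPM in CCNA-GFP mitosis and 4.14 TPM at 60 min, while Nup62 went from 0.766 to 9.83 TPM.

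Nup98, which lines the channel and binds messenger export factors, moved less. It was at 2.40, 2.62 and 3.01 TPM in CCNA-GFP mitosis and 5.78 and 3.89 at 60 min, all above mitosis (0.73 ± 0.13, adjusted p = 2.5e-05). In -IAA cells it was at 4.59, 4.34 and 5.38 TPM in mitosis against 5.76 and 5.31 TPM at 60 min, which overlap (0.26 ± 0.10, adjusted p = 0.016, and 0.24 without the block). Nup54, the remaining channel gene, was called higher at 40 and 60 min in each series, at 40 min in CCNA-GFP with the block alone (adjusted p = 0.055 without it).

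All 3 basket genes were called higher at 60 min in each series (88.3% of all genes in CCNA-GFP, 84.8% in -IAA and 82.2% in +IAA cells). Nup50, a mobile basket protein that helps release import cargo, was at 1.88, 1.36 and 2.00 TPM in CCNA-GFP mitosis, 5.003 and 3.73 at 40 min, 8.51 in the single 50 min library, 8.64 and 6.43 at 60 min, 4.65 and 5.63 at 90 min and 4.26 and 3.91 at 120 min. The libraries from 30 min on all lay above mitosis, and those at 120 min lay below those at 60 min. The log2 fold change was 1.71 ± 0.12 at 60 min (adjusted p = 2.3e-10) and -0.74 ± 0.13 from 60 to 120 min (adjusted p = 0.00023). Tpr, the main scaffold of the basket, went from 2.16, 1.73 and 2.42 TPM to 8.37 and 5.09 at 60 min (1.36 ± 0.13, adjusted p = 5.6e-09). In -IAA cells Tpr went from 5.61, 4.32 and 6.11 to 11.1 and 10.1 TPM (0.95 ± 0.11, adjusted p = 3.2e-08). The groups did not overlap in either line. Nup153, which tethers the basket to the pore, went from 4.04, 3.92 and 4.86 TPM to 9.28 and 6.36 in CCNA-GFP cells (0.82 ± 0.14, adjusted p = 1.3e-05), again without overlap.

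**Figure D3:**
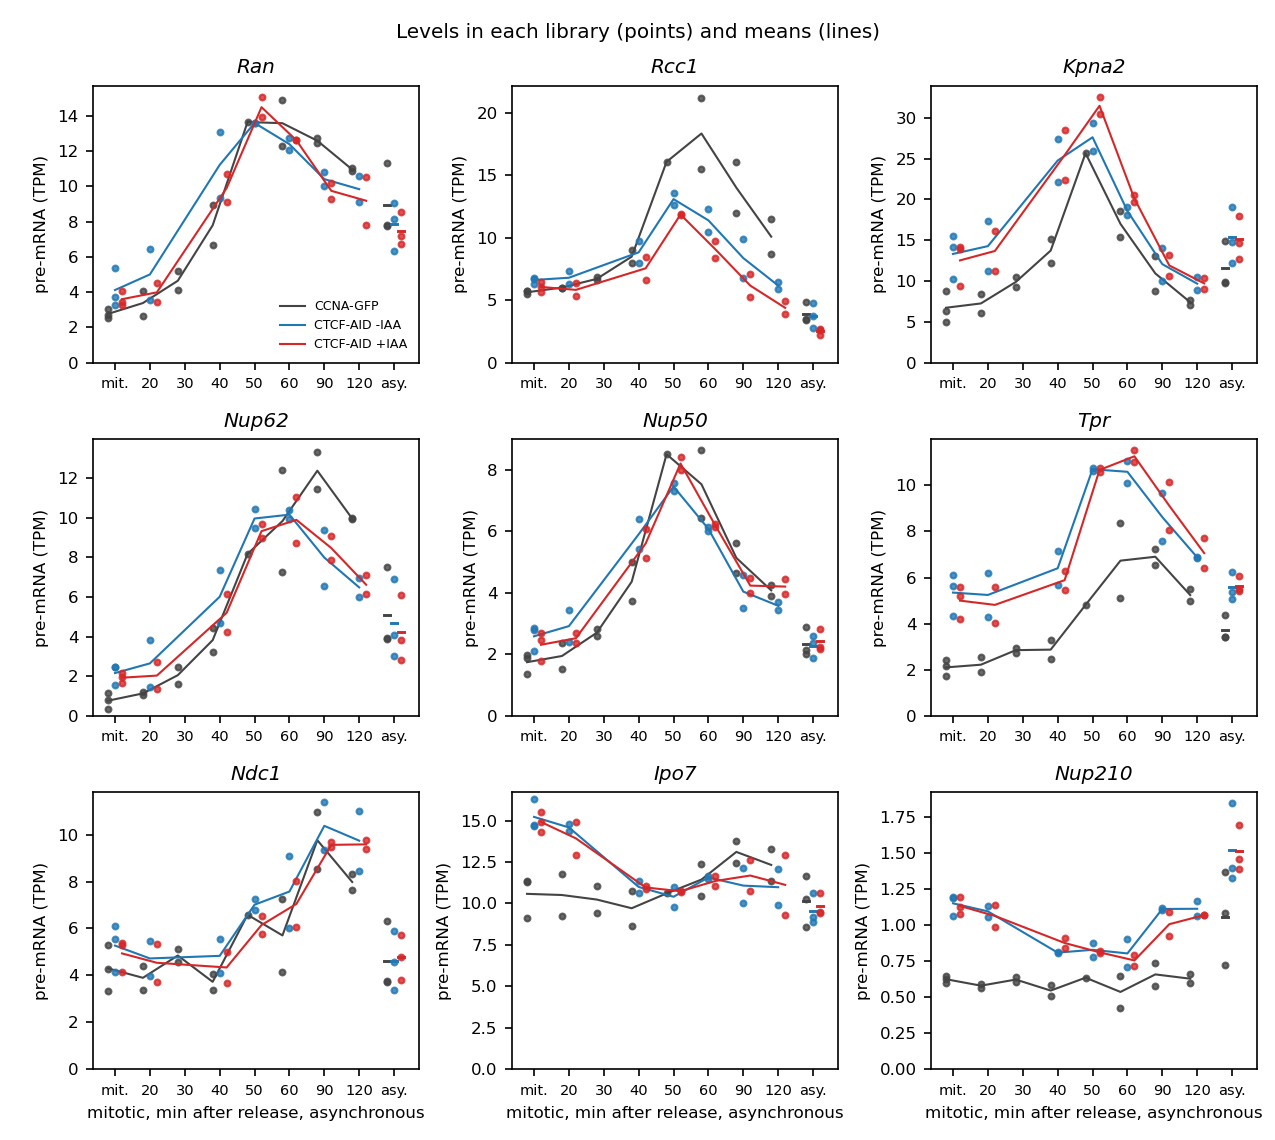
Pre-mRNA level in TPM (vertical axis, from 0) of 9 members in every library (points) of CCNA-GFP (grey), CTCF-AID -IAA (blue) and CTCF-AID +IAA cells (red) at each stage (horizontal axis, evenly spaced), with lines through the stage means and a bar at the asynchronous mean. Kpna2 has its highest mean at 50 min in each series, Ndc1 at 90 or 120 min, and Nup210 in asynchronous cells.

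The promoters of the 3 members with a shared sequence and the largest changes are shown here. RefSeq promoter windows (GRCm38.p6) were found for 42 of the 51 genes, and the 250 bases before each start were searched on both strands. The palindrome of 10 bases bound by the factor NRF1 was found in 5 of 42 (11.9%), against 0.877% of 27025 gene symbols. These symbols were not limited to the genes listed for these cells, whereas every member was listed. The shares of all symbols given for the motifs therefore do not show how members stand against other listed genes. The 5 were Nup62, Ran, Nup50, Nup107 and Xpo5, of which Nup62, Ran and Nup50 were among the 4 largest changes at 60 min in CCNA-GFP cells. Only exact matches of the letters were counted. The match lies 20 bases before the RefSeq start in Nup62 (chr7:44815838-44816087, plus strand), 205 bases before it in Ran (chr5:129019906-129020068, plus strand) and 167 and 105 bases before it in Nup50 (chr15:84923178-84923410, plus strand). In these sequences, written 5′ to 3′ and ended before the annotated gene span, capitals mark the NRF1 palindrome.
Nup62: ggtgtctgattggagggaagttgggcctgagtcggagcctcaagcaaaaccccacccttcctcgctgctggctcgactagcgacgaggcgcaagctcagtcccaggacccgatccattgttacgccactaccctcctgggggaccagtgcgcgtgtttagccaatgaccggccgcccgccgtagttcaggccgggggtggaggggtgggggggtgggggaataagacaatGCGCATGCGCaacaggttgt
Ran: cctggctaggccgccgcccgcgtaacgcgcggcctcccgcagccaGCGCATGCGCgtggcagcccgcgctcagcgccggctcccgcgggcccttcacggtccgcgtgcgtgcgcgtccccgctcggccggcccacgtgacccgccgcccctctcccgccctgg
Nup50: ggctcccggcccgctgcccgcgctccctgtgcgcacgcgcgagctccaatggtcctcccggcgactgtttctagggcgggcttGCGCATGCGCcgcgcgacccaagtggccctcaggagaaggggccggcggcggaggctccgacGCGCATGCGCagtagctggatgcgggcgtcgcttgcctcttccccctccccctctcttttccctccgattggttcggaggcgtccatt
For Nup107 (chr10:117792751-117792780, minus strand) and Xpo5 (chr17:46202716-46202745, plus strand) the first match is shown with the bases around it, 65 and 85 bases before the start. Xpo5 has a further match 62 bases before its start, outside the stretch shown.
Nup107: gacgaaagtcGCGCATGCGCcgagcgggaa
Xpo5: acttccgcgcGCGCATGCGCcgtggcggct
At 60 min in CCNA-GFP cells Nup107 had a log2 fold change of 1.23 ± 0.12 (adjusted p = 1.5e-08) and Xpo5 one of 0.59 ± 0.14 (adjusted p = 0.00048). A match in letters is a description and not a bound site. The other 6 motifs searched were CACGTG (E-box) in 8 of 42 genes (19%, against 6.86% of all symbols), CCGGAAG (ETS) in 8 of 42 genes (19%, against 7.83% of all symbols), the core of the CTCF motif in 6 of 42 genes (14.3%, against 8.24% of all symbols), CCAAT (NFY) in 18 of 42 genes (42.9%, against 37.5% of all symbols), CCGCCC (GC box) in 29 of 42 genes (69.0%, against 35.4% of all symbols) and the YY1 motif in 0 of 42 genes (0%, against 0.248% of all symbols). The motifs were chosen with the levels known.

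Of the Ran cycle, Ran and Rcc1 were called higher in each series at 60 min (88.3% of all genes in CCNA-GFP, 84.8% in -IAA and 82.2% in +IAA cells), Ran also with each library at the same total, where the log2 fold change of Rcc1 was below 0 in both CTCF-AID arms. Ran itself was at 3.07, 2.69 and 2.53 TPM in CCNA-GFP mitosis, 8.91 and 6.66 at 40 min, 13.6 in the 50 min library, 14.9 and 12.3 at 60 min and 11.0 and 10.9 at 120 min. All libraries from 30 min on exceeded all mitotic ones. The log2 fold change at 60 min was 1.98 ± 0.16 (adjusted p = 6.2e-10) in CCNA-GFP, 1.43 ± 0.17 (adjusted p = 3.8e-08) in -IAA and 1.59 ± 0.17 (adjusted p = 6.5e-09) in +IAA cells. Asynchronous CCNA-GFP cells, at 7.74, 7.79 and 11.3 TPM, stood between mitosis and 60 min. Ran is the shortest member (chr5:129020069-129024323, plus strand, 4.3 kb).

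Rcc1, the exchange factor that loads Ran with GTP on chromatin, was called above its mitotic level from 40 to 120 min in CCNA-GFP cells and below it in asynchronous cells. It was at 5.47, 5.71 and 5.71 TPM in CCNA-GFP mitosis, 9.01 and 7.96 at 40 min, 21.2 and 15.5 at 60 min, 11.97 and 16.0 at 90 min and 8.66 and 11.5 at 120 min, but at 3.39, 3.52 and 4.82 in asynchronous cells. The asynchronous libraries all lay below every mitotic and post-mitotic library. The log2 fold change was 1.59 ± 0.16 at 60 min (adjusted p = 9.4e-09) and -0.44 ± 0.14 in asynchronous cells against mitosis (adjusted p = 0.0069), where Rcc1 was the one member called lower. In -IAA cells these were 0.77 ± 0.13 (adjusted p = 5.3e-06) and -0.70 ± 0.11 (adjusted p = 4.6e-05). By 120 min Rcc1 was no longer above mitosis in that line, with a log2 fold change of -0.01 ± 0.13, adjusted p = 0.93 in -IAA cells. In +IAA cells it was called lower there, at 3.85 and 4.92 TPM against 6.43, 5.66 and 6.08 TPM in mitosis (-0.32 ± 0.13, adjusted p = 0.027, and 0.053 without the block), a call also lost without replicate 1. CCNA-GFP cells too had Rcc1 called lower at 120 min when each library was set to the same total. Rcc1 (chr4:132331919-132353605, minus strand, 21.7 kb) shares 25.8% of its length with the noncoding gene Snhg3 on the same strand, so its level is uncertain. Of the 51 members 18 are overlapped by a gene on their strand and 6 by a protein-coding one, the latter Nup62, Ipo4 by Gm49378 over 65.2%, Nup35 by Dusp19 over 36.3%, Xpo4 by Gm49361 over 26.6%, Nup188 by Gm28038 over 25.4% and Xpo7 by Npm2 over 4.45% of their lengths, and the levels of these are uncertain in the same way.

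Rangap1, the GTPase activator, changed less. It was at 3.80, 3.62 and 4.72 TPM in CCNA-GFP mitosis and 6.24 and 4.45 at 60 min, where the groups overlapped (0.46 ± 0.14, adjusted p = 0.0034, and 0.17 without the block). In -IAA cells 4.41, 3.56 and 5.10 TPM in mitosis stood against 4.45 and 4.29 at 60 min (0.12 ± 0.11, adjusted p = 0.29) and 2.99 and 2.91 at 120 min (-0.32 ± 0.11, adjusted p = 0.0089), where both libraries lay below mitosis, a call lost without replicate 1.

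Among the importins alpha, which bind the nuclear localisation signal of cargo, all 5 were called higher at 60 min in each series, as were 88.3% of all genes in CCNA-GFP, 84.8% in -IAA and 82.2% in +IAA cells. Kpna2, a form known to be abundant in ES cells, was at 6.34, 5.02 and 8.83 TPM in CCNA-GFP mitosis, 15.2 and 12.3 at 40 min, 25.7 in the 50 min library, 18.6 and 15.4 at 60 min, 8.83 and 13.0 at 90 min and 7.08 and 7.73 at 120 min. By 120 min its libraries overlapped the mitotic ones, although it was still called higher (0.32 ± 0.14, adjusted p = 0.034, and 0.56 without the block), a call also lost without replicate 2 or 3 and turned to lower at the same total. The change from 60 to 120 min, -1.09 ± 0.15 (adjusted p = 1.9e-05), was the largest fall of all members. In -IAA cells Kpna2 went from 14.1, 10.3 and 15.5 TPM in mitosis to 27.4 and 22.1 at 40 min, 25.9 and 29.4 at 50 min and 10.5 and 8.86 at 120 min, where it was called lower than mitosis (-0.28 ± 0.11, adjusted p = 0.030, and 0.13 without the block) although one library overlapped. That call was also lost without replicate 1 or 3, and the call of Kpna2 as higher at 60 min in -IAA cells without the block (adjusted p = 0.055). In +IAA cells the 50 min libraries held 30.4 and 32.5 TPM. The other importins alpha, Kpna1, Kpna3, Kpna4 and Kpna6, had log2 fold changes of 0.55 to 1.49 at 60 min in CCNA-GFP cells.

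The importin beta family, the carriers that bind the pore itself, had 9 of 10 members called higher at 60 min in CCNA-GFP (88.3% of all genes), and 7 higher (84.8%) with 1 lower (2.7%) in -IAA cells. Kpnb1, importin beta, was at 7.35, 7.44 and 8.21 TPM in CCNA-GFP mitosis and 17.0 and 13.6 at 60 min, well apart (0.97 ± 0.14, adjusted p = 1.1e-06). In -IAA cells it was at 19.8, 15.3 and 20.2 TPM in mitosis, 20.6 and 20.9 at 60 min (0.26 ± 0.14, adjusted p = 0.081) and 12.1 and 14.2 at 120 min (-0.36 ± 0.14, adjusted p = 0.024), a call lost without replicate 1 or 3. Its log2 fold change at 60 min in -IAA cells was 0.13 to 0.44 with a replicate left out. Tnpo2, a transportin that imports RNA-binding proteins, went from 4.01, 4.35 and 5.40 TPM to 18.1 and 14.6 at 60 min in CCNA-GFP cells (1.75 ± 0.16, adjusted p = 3.9e-09). Its asynchronous libraries, at 3.60, 5.58 and 6.74 TPM, overlapped mitosis (0.15 ± 0.14, adjusted p = 0.34).

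Ipo7, an importer of ribosomal proteins and histones, was not called higher at 60 min. It was at 9.09, 11.3 and 11.3 TPM in CCNA-GFP mitosis and 12.4 and 10.5 at 60 min, which overlap (0.16 ± 0.13, adjusted p = 0.27). With a replicate left out it had a log2 fold change of -0.06 to 0.40 at 60 min. At 90 min it was at 12.4 and 13.8 TPM, above all mitotic libraries, and was called higher (0.31 ± 0.13, adjusted p = 0.036, and 0.14 without the block), a call lost when any one of the 3 replicates was left out and turned to lower at the same total. In -IAA cells 14.7, 14.6 and 16.3 TPM in mitosis stood against 10.6 and 11.3 at 40 min and 11.6 and 11.5 at 60 min, all below mitosis (-0.33 ± 0.11, adjusted p = 0.0063 at 60 min). It was called lower than mitosis at every stage from 40 min on in both arms of the line, asynchronous cells included, also without the block, but not at 120 min in +IAA cells without replicate 1. Ipo11, the longest member (chr13:106794439-106936958, minus strand, 142.5 kb), was at 3.10, 2.56 and 4.39 TPM in CCNA-GFP mitosis and 5.06 and 2.83 at 60 min (0.35 ± 0.13, adjusted p = 0.014, and 0.54 without the block), and at 6.52 and 8.31 at 90 min (0.80 ± 0.13, adjusted p = 7.1e-06). Its libraries overlapped mitosis at 60 min and lay above it at 90 min. With a replicate left out, the log2 fold change of Ipo11 at 60 min was 0.16 to 0.57.

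All 5 exportins were called higher at 60 min in CCNA-GFP cells (88.3% of all genes) and 3 in -IAA cells (84.8%). Xpo1, the main exporter of proteins with leucine-rich signals, was at 7.25, 6.64 and 7.87 TPM in CCNA-GFP mitosis and 19.3 and 13.9 at 60 min (1.17 ± 0.14, adjusted p = 1.4e-07). In -IAA cells it went from 15.8, 13.1 and 16.7 TPM to 22.4 and 22.3 (0.64 ± 0.13, adjusted p = 9.6e-05), and at 120 min, at 14.3 and 16.2 TPM, it overlapped mitosis. Xpo4 was called lower than mitosis at 40 and 50 min in both arms of the CTCF-AID line, at -0.24 ± 0.09 (adjusted p = 0.016) at 40 min in -IAA cells. None of these 4 calls was made without the block (adjusted p = 0.075 and 0.33 in -IAA and 0.053 and 0.13 in +IAA cells).

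In the Y complex, which seeds new pores on chromatin, 7 of 8 members were called higher at 60 min in CCNA-GFP cells (88.3% of all genes), with a median log2 fold change of 0.93 against 0.79 over all genes. Nup107, a core subunit, was at 2.75, 2.13 and 3.18 TPM in mitosis, 8.68 and 5.52 at 60 min and 4.84 and 4.29 at 120 min. All of its 60 min libraries lay above all others of these stages, and its change from 60 to 120 min was -0.51 ± 0.13 (adjusted p = 0.0052, and 0.14 without the block). Nup85 of the same complex was instead called higher at 120 than at 60 min (0.51 ± 0.15, adjusted p = 0.012, and 0.21 without the block). Nup37, a peripheral subunit, was at 1.95, 1.63 and 2.36 TPM in mitosis and 2.70 and 1.73 at 60 min (0.19 ± 0.11, adjusted p = 0.097). It was called higher at 90 min, at 2.78 and 2.92 TPM (0.28 ± 0.11, adjusted p = 0.018, lost without replicate 1 or 3), at 120 min, at 2.86 and 2.38 TPM (0.38 ± 0.11, adjusted p = 0.0027, and 0.12 without the block), and in asynchronous cells, at 2.47, 2.30 and 3.46 TPM (0.32 ± 0.09, adjusted p = 0.0047, and 0.079 without the block, lost without replicate 3). The log2 fold change of Nup37 was below 0 at these 3 stages with each library at the same total. In -IAA cells Nup37 was called lower at 60 min (-0.16 ± 0.07, adjusted p = 0.045, and 0.12 without the block, with the call also lost without replicate 2 or 3), at 2.72 and 2.00 TPM against 2.85, 2.56 and 3.68 TPM, although these libraries overlapped.

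The inner ring had the lowest median at 60 min among the roles of the pore in CCNA-GFP cells, 0.45, and one of 0.35 in -IAA cells, against 0.79 and 0.63 over all genes. Nup93, its linker, was at 2.33, 2.23 and 2.87 TPM in CCNA-GFP mitosis, 3.69 and 2.40 at 60 min (0.31 ± 0.13, adjusted p = 0.027, and 0.31 without the block) and 4.11 and 5.19 at 90 min. Only the 90 min libraries of these were clear of mitosis. Leaving out a replicate moved the log2 fold change of Nup93 at 60 min to between 0.12 and 0.53. In -IAA cells Nup93 was not called at 60 min (0.16 ± 0.10, adjusted p = 0.14). Ndc1, a transmembrane anchor of the membrane ring, was at 4.25, 3.32 and 5.31 TPM in CCNA-GFP mitosis, 4.07 and 3.38 at 40 min, 7.27 and 4.14 at 60 min, 8.54 and 11.0 at 90 min and 8.33 and 7.63 at 120 min. Its 60 min libraries overlapped mitosis, and those at 90 and 120 min lay above it. It was called higher at 120 than at 60 min in each series, by 0.46 ± 0.15 (adjusted p = 0.020) in CCNA-GFP and 0.34 ± 0.10 (adjusted p = 0.0077) in -IAA cells. Without the block the adjusted p was 0.25 in CCNA-GFP, 0.25 in -IAA and 0.17 in +IAA cells, and without replicate 2 none of these calls was made. Its calls as higher at 60 min than in mitosis were lost without the block too (adjusted p = 0.23, 0.057 and 0.061 in the same order).

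Nup210, a transmembrane nucleoporin of the membrane ring known to increase in differentiating cells, had the smallest log2 fold change at 60 min in CCNA-GFP cells. It was at 0.627, 0.598 and 0.647 TPM in mitosis and 0.647 and 0.424 TPM at 60 min (-0.04 ± 0.09, adjusted p = 0.72), and highest in asynchronous cells, at 0.725, 1.08 and 1.37 TPM (0.33 ± 0.08, adjusted p = 0.0016 against mitosis). In -IAA cells it fell from 1.07, 1.20 and 1.19 TPM to 0.900 and 0.706 at 60 min (-0.23 ± 0.06, adjusted p = 0.0019), with no overlap, a call lost without replicate 2. It was the one member called lower at 60 min than in asynchronous cells in each series. On the cytoplasmic side all 5 genes were called higher at 60 min in CCNA-GFP cells (88.3% of all genes). Ranbp2, the filament protein that binds Ran and carries SUMO ligase activity, went from 2.30, 2.03 and 2.73 TPM to 8.10 and 5.41 (1.27 ± 0.12, adjusted p = 7.3e-09), and in -IAA cells from 3.65, 3.05 and 3.83 to 6.72 and 6.36 (0.80 ± 0.09, adjusted p = 1.5e-08).

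No member was called lower than mitosis at any stage from 20 to 120 min in CCNA-GFP cells. In -IAA cells the members called lower were Ipo7, Nup205, Nup210, Nup37 and Xpo4 at 40 min, Ipo7, Nup210, Nup37 and Xpo4 at 50 min, Ipo7, Nup210 and Nup37 at 60 min, Ipo7, Kpna2, Kpnb1 and Rangap1 at 90 min and Ipo7, Kpna2, Kpnb1 and Rangap1 at 120 min. In +IAA cells they were Ipo11, Ipo7, Nup210 and Xpo4 at 40 min, Ipo7, Nup210, Nup37, Nup93 and Xpo4 at 50 min, Ipo7 and Nup210 at 60 min, Ipo7 and Rangap1 at 90 min and Ipo7, Kpnb1 and Rcc1 at 120 min. All of these genes but Nup210 were called higher than mitosis at 90 min in CCNA-GFP cells. These calls are as deposited and with the block.

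Members differed in the stage at which they were highest. In CCNA-GFP cells 7 had their highest mean in the single 50 min library, 11 at 60 min, 32 at 90 min and 1, Nup210, in asynchronous cells, where 21.7, 23.1, 37.1 and 10.4% of all genes were highest. In -IAA cells, where 50 min has 2 libraries, 23 were highest at 50 min, 14 at 60 min, 11 at 90 min, 2 in mitosis (Ipo7 and Nup37) and 1, Nup210, in asynchronous cells, against 48.1, 18.0, 17.1, 1.08 and 8.08% of all genes. Kpna2, Nup35, Nup50, Nup88, Pom121, Rae1 and Ran were highest at 50 min in both. The libraries of 60 and 90 min come from different replicates in part, so neighbouring stages are not always told apart.

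From 60 to 120 min 10 members were called lower (28.5% of all genes) and 4 higher (9.6%) in CCNA-GFP cells. The count lower was 2 without replicate 1 (6.37% of all genes). The 3 largest falls were those of Kpna2, Rcc1 (-0.80 ± 0.17, adjusted p = 0.0010) and Nup50, and the 4 called higher were Ipo11, Ndc1, Nup85 and Xpo7. Without the replicate block 4 were called lower (12.1% of all genes) and 0 higher (1.79%), and without replicate 2 none was called higher (2.39%). In -IAA cells 31 members were called lower (53.1% of all genes) and 2 higher (7.31%), the latter Ndc1 and Nup210. In +IAA cells 28 members were called lower (50.8% of all genes) and 3 higher (7.61%). The counts lower were 18 without replicate 1 (40.4% of all genes) in -IAA and 15 without replicate 1 (33.4% of all genes) in +IAA cells. Without the block there were 1 higher (2.62%) with 13 lower (33.2%) in -IAA and 1 higher (2.78%) with 14 lower (33.1%) in +IAA cells, the higher one Nup210 in both. Without replicate 2 neither had one called higher (2.5% and 2.24% of all genes), and without replicate 1 +IAA cells had 6 (8.01%). With each library at the same total, 9 were called lower and 14 higher in CCNA-GFP (21.7% and 24.4% of all genes), 11 and 14 in -IAA (26.5% and 25.6%), and 12 and 16 in +IAA cells (27.2% and 26.6%). Ndc1 was called higher on both scales in each series, with the block. With each library divided by its step factor, read from the step between its deposited values, there were 2 higher (6.76%) with 4 lower (13.8%) in CCNA-GFP, 0 higher (3.83%) with 38 lower (59.3%) in -IAA and 3 higher (6.48%) with 25 lower (49.2%) in +IAA cells.

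Against asynchronous cells, 41 members were called higher at 60 min in CCNA-GFP (67.0% of all genes), or 17 without replicate 1 (44.7% of all genes), and 1, Nup210, lower (8.6%). Without replicate 2 Nup210 was not called there, and without the block 25 were called higher (52.8% of all genes). With libraries divided by their step factor there were 15 higher (41.5%) with 4 lower (15.2%). With each library at the same total 10 were called higher (35.0%) and 21 lower (35.2%). In -IAA cells 46 were called higher (75.2%) and 1 lower (7.06%), and in +IAA cells 43 (72.2%) and 1 (8.24%). At the same total these arms had 17 higher (37.5%) and 15 lower (32.9%), and 16 (36.9%) and 17 (33.9%). With the step factor they had 36 higher (62.6%) with 1 lower (11.6%) in -IAA and 34 higher (57.2%) with 3 lower (14.6%) in +IAA cells.

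Asynchronous cells were also set against mitosis, where the balance of higher and lower calls depended on scale. In CCNA-GFP 36 members were called higher there (70.4% of all genes), or 18 without replicate 3 (47.0% of all genes), and Rcc1 lower (1.97%). Without the block 20 were higher (46.7%). At the same total there were 5 higher (24.8%) with 18 lower (20.3%), and with the step factor 41 higher (78.0%) with 0 lower (0.626%). In -IAA cells 5 were called higher (34.3%), or 2 without replicate 3 (17.3% of all genes), and 8 lower (5.25%), the latter Ipo7, Kpna6, Nup133, Nup188, Nup214, Nup37, Rcc1 and Xpo4. At the same total there were 4 higher (27.2%) with 33 lower (21.4%), and with the step factor 19 higher (64.2%) with 2 lower (1.3%). Of these 8 only Ipo7 and Rcc1 were called without the block, where 3 were called higher (11.6% of all genes) and 1.24% of all genes lower. The counts lower were 5 without replicate 2 (4.0% of all genes) and 2 without replicate 3 (2.62% of all genes). In +IAA cells these counts were 8 (40.9%), or 4 without replicate 3 (26.9% of all genes), and 4 (5.89%). Without the block there were 4 higher (17.3%) with 2 lower (1.75%), at the same total 3 higher (29.8%) with 31 lower (22.4%), and with the step factor 25 higher (65.4%) with 2 lower (1.94%). The tables of the 2 lines were normalized separately, and the lines were not tested against each other.

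Short members had the larger changes after mitosis. Gene length in the GENCODE annotation (vM21, GRCm38) ran from 4.3 kb for Ran to 142.5 kb for Ipo11. Spearman's rho between length and the log2 fold change against mitosis over the 51 members in CCNA-GFP cells was -0.39 at 20 min, strongest with -0.64 at 40 min, -0.57 by 60 min, -0.41 by 120 min and -0.15 in asynchronous cells. Over the 9900 genes with a length it was -0.54 at 40 min and -0.37 at 60 min. In -IAA cells the members gave -0.42, -0.68, -0.58 and -0.41 at 20, 40, 60 and 120 min and -0.31 in asynchronous cells. In +IAA cells they gave -0.63, -0.69, -0.58 and -0.45 at these stages and -0.45 in asynchronous cells, where over all genes it was -0.15. The 19 members under 30 kb had a median log2 fold change of 0.54 at 40 min, then 1.18 by 60 min in CCNA-GFP cells, and the 11 of at least 60 kb one of 0.04 and 0.435. At 120 min these were 0.97 and 0.63. Genes are not independent replicates and share their libraries, so this is a description.

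**Figure D4:**
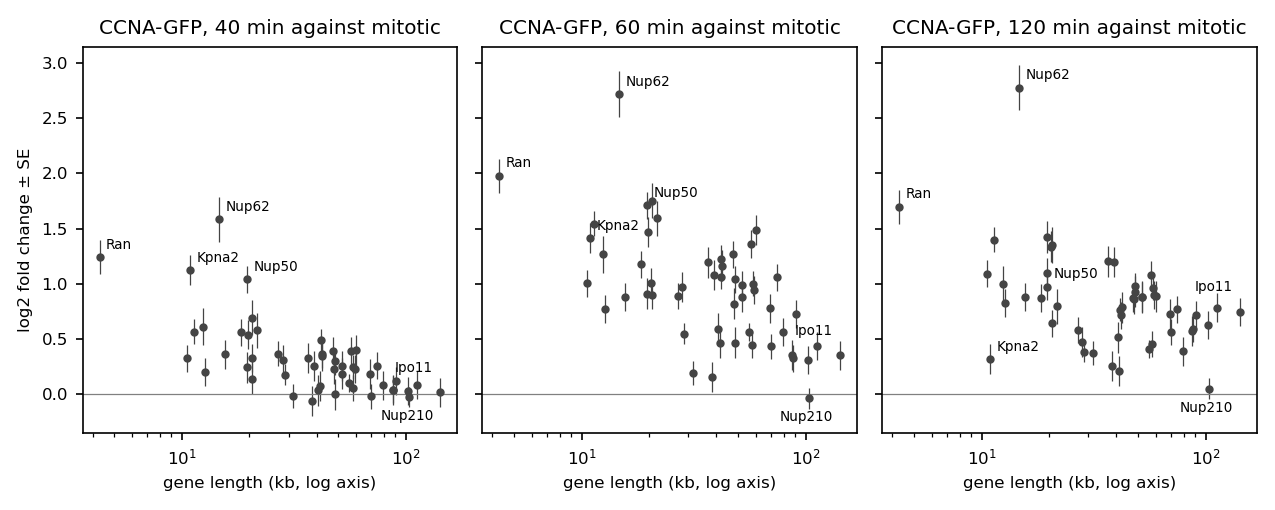
Log2 fold change ± SE against mitosis (vertical axis) by gene length in kb (horizontal log axis) for the 51 members (points) in CCNA-GFP cells at 40, 60 and 120 min. At 40 min Ran, Nup62, Kpna2 and Nup50, all under 30 kb, are highest, and at 120 min Ipo11, the longest, is well above 0 while Nup210 stays near it.

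With IAA, which removes CTCF, no member was called at any of the 8 stages in limma without the replicate block, at an adjusted p under 0.1 and a log2 difference beyond 0.2 in either direction. Of all genes, 0.0, 0.0, 0.0, 0.0879, 0.0586, 0.176, 0.127 and 0.313% were called higher and 0.0, 0.0, 0.0, 0.195, 0.166, 0.557, 0.459 and 0.694% lower, in the order mitosis, the 6 stages from 20 to 120 min, asynchronous. An unadjusted p under 0.05 was reached by 1 member, Rcc1, at 90 and 120 min and in asynchronous cells, and by none at the other stages. Of 10237 genes 246, 215 and 286 reached it at 90 and 120 min and in asynchronous cells. The median log2 difference of the 51 genes, +IAA minus -IAA, lay between -0.07 and 0.01 over the 8 stages, with a median SE of 0.14 to 0.17 for a gene. The change of the IAA difference between mitosis and 60 min was called in no member either (0 of 10237 genes). At an unadjusted p under 0.05 there were 0 members, against 79 of all genes. With the replicate as a block that test called 22 genes and no member. In the comparisons of the arms at single stages, the block, which sets same-numbered libraries against each other, did give a call. It was 1 member, Rcc1, lower in asynchronous cells (adjusted p = 0.051 in limma), where 249 of 10237 genes were called.

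Rcc1 was lower with IAA in all 18 pairs of libraries of one stage and replicate, as were 0.938% of all genes. In asynchronous cells it stood at 3.76, 2.74 and 4.79 TPM without IAA and at 2.60, 2.24 and 2.73 TPM with it, so the groups met without overlapping. At 120 min it was at 5.91 and 6.43 against 3.85 and 4.92 TPM, at 90 min at 6.81 and 9.92 against 5.26 and 7.08 TPM, and in mitosis at 6.72, 6.32 and 6.81 against 6.43, 5.66 and 6.08 TPM. The groups overlapped at 90 min and in mitosis and were apart at 120 min. The log2 difference was -0.42 ± 0.15 in asynchronous cells (adjusted p = 0.57), -0.42 ± 0.18 at 120 min, -0.38 ± 0.18 at 90 min and -0.11 ± 0.15 in mitosis (adjusted p = 1 in each of these). With the replicate as a block, Rcc1 was called lower in asynchronous cells (adjusted p = 0.051), where 1.53% of all genes were. With each library at the same total it was called lower in asynchronous cells (-0.44 ± 0.07, adjusted p = 0.00057), at 120 min (-0.40 ± 0.09, adjusted p = 0.020) and at 90 min (-0.36 ± 0.09, adjusted p = 0.057). The share of all genes called on that scale is not given here. With each library divided by its step factor, Rcc1 was not called at any stage, with -0.32 ± 0.14 in asynchronous cells, -0.27 ± 0.18 at 120 min and -0.27 ± 0.18 at 90 min (adjusted p = 1 in each, unadjusted p = 0.034, 0.13 and 0.14). The log2 difference at 60 min was not shown to differ from that in mitosis (-0.19 ± 0.23, adjusted p = 1). The part of Snhg3 reads in these values was not tested.

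The RefSeq promoter window of Rcc1 (chr4:132345751-132346000, minus strand) is shown because CTCF is the protein removed. It lies inside the annotated span of the gene. On the minus strand that span starts at chr4:132353605, which is outside the window. Neither the searched core of the CTCF motif nor the NRF1 palindrome has an exact match in these 250 bases, which says only that these letters are not in this window. A stretch of the window departs from the CTCF core at a single fixed letter. Inexact matches were not counted for any gene, so the search does not show that Rcc1 lacks a similar site. Whether CTCF binds there was not tested.
Rcc1: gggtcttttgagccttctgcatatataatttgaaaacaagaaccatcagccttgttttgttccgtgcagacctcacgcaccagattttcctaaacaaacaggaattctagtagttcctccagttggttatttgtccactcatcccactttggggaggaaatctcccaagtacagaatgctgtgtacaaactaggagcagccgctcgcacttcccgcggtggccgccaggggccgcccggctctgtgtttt
The 6 members with the CTCF core in their windows were Ipo11, Kpna4, Rangap1, Sec13, Tnpo3 and Xpot, none of which was called with IAA at any stage.

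**Figure D5:**
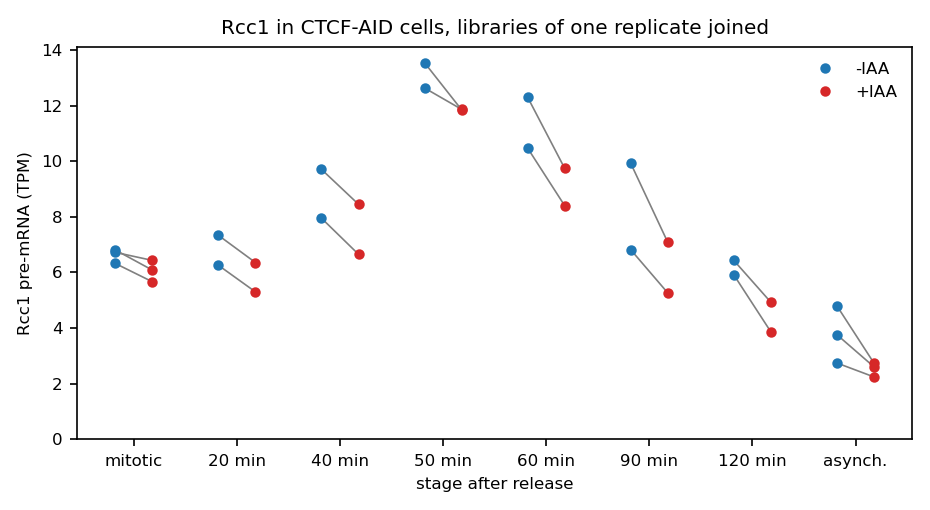
Rcc1 pre-mRNA in TPM (vertical axis, from 0) in CTCF-AID cells without (blue) and with IAA (red) at each stage (horizontal axis), with a line joining the libraries of one replicate. Each of the 18 lines slopes down.

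Among other members, Ran was lower with IAA in 12 of 18 pairs, Nup62 in 13, Kpna2 in 9 and Ipo7 in 7. After Rcc1, Ipo9 and Ipo11 were the most often lower, in 16 and 16 of 18 pairs, with mean log2 differences of -0.09 and -0.06, and both were singled out after their values were seen. Of all genes 4.83% were lower in at least 16 pairs. Most members leaned lower in the early stages, with a log2 difference below 0 for 45 of 51 in mitosis (62.2% of all genes), 50 at 20 min (86.1%) and 45 at 40 min (77.2%), against 23 in asynchronous cells (42.3%). These signs were not tested, and the members of a library share its scale.

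Of 25 further genes of nuclear transport and messenger export, such as Ahctf1 (the nucleoporin that brings the Y complex to chromatin), Cse1l (the exporter of importin alpha) and Nxf1 with its partner Nxt1 (bulk messenger export), 23 were listed in CCNA-GFP and 24 in CTCF-AID. At 60 min 21 were called higher and none lower in CCNA-GFP cells, against 88.3% and 0.515% of all genes, with a median log2 fold change of 0.85 against 0.79 over all genes. With each library at the same total 8 were higher and 8 lower (36.4% and 33.3%). In each arm of CTCF-AID 20 were called higher (84.8% of all genes in -IAA and 82.2% in +IAA cells) and 2 lower (2.7% and 4.04%), Ranbp17 and Thoc2. At the same total these counts were 8 (39.4%) and 11 (31.1%) in -IAA and 8 (40.7%) and 11 (33.2%) in +IAA cells. Nxf1 went from a mean of 1.59 to 10.5 TPM (2.24 ± 0.14, adjusted p = 1.1e-10) and Nxt1 from 1.27 to 7.63 TPM (1.98 ± 0.12) in CCNA-GFP cells. Ranbp1, a coactivator of Ran GTP hydrolysis, went from 5.76 to 14.7 TPM (1.28 ± 0.13). Ranbp17, of the importin beta superfamily, went from 5.38 to 2.95 TPM in -IAA cells (-0.58 ± 0.12, adjusted p = 0.00015). None of the 24 listed in CTCF-AID was called with IAA at any stage.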

How the data were processed

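The 55 libraries were ribosome-depleted, stranded and paired-end, from 3 independent replicates per line. Alignment by the authors used STAR on mm10, and levels came from RSEM on Gencode vM12, to which each gene's pre-mRNA had been added as an isoform. They kept genes over 0.5 TPM on average in asynchronous or enough post-mitotic samples. The deposited values are TPM of pre-mRNA per library, whose depth is unknown. They are whole multiples of a library's step (0.0184 to 0.0381 TPM), a factor no source names. Plain TPM is relative to all transcripts, so a change in one group of transcripts moves the others, and it does not measure RNA per cell. Whether values that carry this factor are still relative in this way is unknown.

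Values were taken as log2(TPM + 1) and fitted with limma 3.58.1 in R 4.3.3, with Benjamini-Hochberg adjustment over all genes of a table. Stages were compared with the replicate number as a block (adjusted p under 0.05). IAA arms were compared without it (adjusted p under 0.1 and a log2 difference over 0.2, with a combined call from asynchronous cells or any 2 post-mitotic stages). Same-numbered libraries of the arms of a stage deviated together (correlation 0.51 to 0.88, 18 of 18 pairs over 0.1). Between stages 44 of 49 pairs in CCNA-GFP and 89 of 98 in CTCF-AID did. The 50 min CCNA-GFP library entered no test. Alternatives were a pseudocount of 0.1, each library at the same total or divided by its step factor, a mean of at least 1 TPM, the other block setting, and each replicate left out. The fits were also run on simulated data with independent noise, no replicate effect and few changed genes. The real libraries differ in each of these points, so that run does not test the calls given here. The genes described one by one were a fixed list of roles plus those with the largest and smallest changes at 60 min, the largest falls to 120 min and the lowest 60 min levels against asynchronous cells. Other members named in the text were chosen after their values were seen. The members and lists were chosen with earlier results of these data known. Lengths and overlaps came from GENCODE vM21 and promoters from RefSeq, and figures were drawn with matplotlib 3.10.9 in Python 3.11.15.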

Additional observations from a re-analysis of the deposited data

Results flagged for a closer look

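The 20 genes described one by one were followed at 60 min, 120 min and in asynchronous cells, with TPM as deposited. In 13 cases every replicate moved one way against mitosis in CCNA-GFP cells and the other way in -IAA CTCF-AID cells. The difference between the lines was not tested, since their tables were normalized separately, and each value is a mean log2 difference from the mitotic library of the same replicate, CCNA-GFP first. At 60 min, over 2 replicates, Nup37 differed by 0.19 and -0.15. At 120 min, over 2 replicates, Rangap1 differed by 0.17 and -0.33, Kpnb1 by 0.45 and -0.38, Kpna2 by 0.34 and -0.30 and Ipo7 by 0.25 and -0.39. In asynchronous cells, over 3 replicates, Kpnb1 differed by 0.39 and -0.29, Nup98 by 0.43 and -0.15, Nup153 by 0.37 and -0.14, Nup107 by 0.24 and -0.16, Nup93 by 0.26 and -0.13, Nup50 by 0.29 and -0.13, Nup37 by 0.32 and -0.17 and Ipo11 by 0.47 and -0.030. Over all 51 members there were 23 such cases, 1 at 60 min, 5 at 120 min and 17 in asynchronous cells, against 1.31, 4.55 and 7.19% of the 9574 genes both tables list. The others were Xpo4 at 120 min and Kpna4, Kpna6, Nup133, Nup155, Nup160, Seh1l, Tnpo1, Tnpo3 and Xpo4 in asynchronous cells. In all of these cases the level after mitosis or in asynchronous cells was, as deposited, above the mitotic one in CCNA-GFP cells. With each library at the same total, Kpna2 at 120 min was called lower than mitosis in CCNA-GFP cells. Nup37 there had a log2 fold change below 0 at 60 min and in asynchronous cells. How many of the cases stay opposite on that scale is not given. Over all genes the median log2 fold change of asynchronous cells against mitosis was 0.33 in CCNA-GFP and 0.12 in -IAA cells, and the part of this shift in the single genes was not tested.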

How the results depend on the processing

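Counts are members called against mitosis unless a comparison is named. Those given moved by over 1.5 times, and every count not listed under a setting stayed within that. With each library at the same total, counts higher became, in CCNA-GFP 5 (40 min), 15 (60 min), 12 (90 min), 13 (120 min), 5 (asynchronous), 10 (60 min against asynchronous) and 14 (120 against 60 min), in -IAA 8 (40 min), 11 (50 min), 11 (60 min), 10 (90 min), 10 (120 min), 17 (60 min against asynchronous) and 14 (120 against 60 min) and in +IAA 7 (40 min), 10 (50 min), 12 (60 min), 10 (90 min), 14 (120 min), 3 (asynchronous), 16 (60 min against asynchronous) and 16 (120 against 60 min). Counts lower became, in CCNA-GFP 28 (40 min), 24 (60 min), 19 (90 min), 22 (120 min), 18 (asynchronous) and 21 (60 min against asynchronous), in -IAA 35 (40 min), 30 (50 min), 27 (60 min), 30 (90 min), 29 (120 min), 33 (asynchronous), 15 (60 min against asynchronous) and 11 (120 against 60 min) and in +IAA 36 (40 min), 29 (50 min), 28 (60 min), 28 (90 min), 30 (120 min), 31 (asynchronous), 17 (60 min against asynchronous) and 12 (120 against 60 min). The median at 60 min reversed to -0.10 (CCNA-GFP), -0.17 (-IAA) and -0.21 (+IAA), since that scaling removes the rise of the total. Single genes called as deposited reversed to, in CCNA-GFP, Rangap1 -0.67, Kpnb1 -0.28, Xpo1 -0.083, Nup98 -0.35, Nup153 -0.34, Nup93 -0.70, Ndc1 -0.67 and Ipo11 -0.72, in -IAA cells, Rcc1 -0.11, Kpna2 -0.33, Xpo1 -0.30, Nup98 -0.57, Nup153 -0.34, Ranbp2 -0.015 and Ndc1 -0.32, and in +IAA cells, Rcc1 -0.29, Kpna2 -0.15, Xpo1 -0.21, Nup98 -0.61, Nup153 -0.29 and Ndc1 -0.33. The combined IAA call went from 0 to 1 member, Rcc1, there and with the replicate block. The share of all genes with that call is not given, though with the block 249 of 10237 genes were called in asynchronous cells. Without the replicate block of the stage comparisons, counts higher were, in CCNA-GFP 5 (40 min), 20 (asynchronous), 25 (60 min against asynchronous) and 0 (120 against 60 min), in -IAA 14 (40 min), 16 (120 min), 3 (asynchronous) and 1 (120 against 60 min) and in +IAA 9 (40 min), 4 (asynchronous) and 1 (120 against 60 min), and counts lower, in CCNA-GFP 4 (120 against 60 min), in -IAA 3 (40 min), 2 (50 min), 1 (90 min), 2 (asynchronous) and 13 (120 against 60 min) and in +IAA 1 (40 min), 2 (50 min), 1 (90 min), 1 (120 min), 2 (asynchronous) and 14 (120 against 60 min). Dividing libraries by their step factor gave counts higher, in CCNA-GFP 15 (60 min against asynchronous) and 2 (120 against 60 min), in -IAA 19 (asynchronous) and 0 (120 against 60 min) and in +IAA 25 (asynchronous), counts lower, in CCNA-GFP 0 (asynchronous), 4 (60 min against asynchronous) and 4 (120 against 60 min), in -IAA 2 (40 min) and 2 (asynchronous) and in +IAA 2 (40 min), 2 (asynchronous) and 3 (60 min against asynchronous), and medians at 60 min of 0.52, 0.47 and 0.46. A pseudocount of 0.1 gave counts higher in CCNA-GFP 1 (30 min), and medians of 1.17 (CCNA-GFP) and 0.74 (-IAA). Genes of at least 1 TPM alone gave counts higher in CCNA-GFP 1 (30 min), and counts lower in CCNA-GFP 0 (60 min against asynchronous), since Nup210 is below that level. The cause of the other differences was not tested.

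With each replicate left out in turn, counts higher were, in CCNA-GFP 0 to 2 (30 min), 10 to 14 (40 min), 39 to 48 (60 min), 47 to 49 (90 min), 45 to 48 (120 min), 18 to 40 (asynchronous), 17 to 42 (60 min against asynchronous) and 0 to 4 (120 against 60 min), in -IAA 17 to 22 (40 min), 33 to 34 (50 min), 40 each time (60 min), 17 to 34 (90 min), 17 to 33 (120 min), 2 to 5 (asynchronous), 43 to 47 (60 min against asynchronous) and 0 to 2 (120 against 60 min) and in +IAA 17 to 18 (40 min), 32 to 36 (50 min), 36 to 43 (60 min), 20 to 36 (90 min), 17 to 40 (120 min), 4 to 10 (asynchronous), 41 to 44 (60 min against asynchronous) and 0 to 6 (120 against 60 min). Counts lower were, in CCNA-GFP 1 each time (asynchronous), 0 to 2 (60 min against asynchronous) and 2 to 14 (120 against 60 min), in -IAA 2 to 4 (40 min), 2 to 6 (50 min), 1 to 3 (60 min), 2 to 4 (90 min), 1 to 4 (120 min), 2 to 7 (asynchronous), 1 each time (60 min against asynchronous) and 18 to 29 (120 against 60 min) and in +IAA 2 to 4 (40 min), 3 to 5 (50 min), 1 to 2 (60 min), 1 to 2 (90 min), 0 to 5 (120 min), 3 to 4 (asynchronous), 1 each time (60 min against asynchronous) and 15 to 30 (120 against 60 min). The moves over 1.5 times were, among counts higher, as follows. Without replicate 1, in CCNA-GFP 10 (40 min) and 17 (60 min against asynchronous) and in +IAA 6 (120 against 60 min). Without replicate 2, in CCNA-GFP 2 (30 min), 13 (40 min) and 0 (120 against 60 min), in -IAA 17 (120 min) and 0 (120 against 60 min) and in +IAA 17 (120 min) and 0 (120 against 60 min). Without replicate 3, in CCNA-GFP 18 (asynchronous), in -IAA 17 (90 min) and 2 (asynchronous) and in +IAA 4 (asynchronous). Among counts lower they were these. Without replicate 1, in CCNA-GFP 2 (60 min against asynchronous) and 2 (120 against 60 min), in -IAA 3 (40 min), 2 (90 min), 1 (120 min) and 18 (120 against 60 min) and in +IAA 2 (40 min), 1 (60 min), 1 (90 min), 0 (120 min) and 15 (120 against 60 min). Without replicate 2, in CCNA-GFP 0 (60 min against asynchronous), in -IAA 2 (40 min), 1 (60 min) and 5 (asynchronous) and in +IAA 2 (40 min) and 5 (120 min). Without replicate 3, in -IAA 2 (50 min), 2 (90 min), 2 (120 min) and 2 (asynchronous) and in +IAA 3 (50 min) and 1 (90 min). No share of all genes stands beside these ranges, so they show how counts moved, not how members stood against all genes. Where an arm kept 1 library, it was assumed to vary like the others. Single log2 fold changes at 60 min moved too, in CCNA-GFP cells those of Nup37 (0.08 to 0.32), Ndc1 (0.27 to 0.69) and Nup210 (-0.13 to 0.09), among others. In -IAA cells that of Rangap1 ran from 0.04 to 0.22. Medians at 60 min were 0.77 to 1.10, 0.55 to 0.65 and 0.53 to 0.71, and no member was called with IAA. The read depth is unknown, so no counting error can be given for members near 1 TPM, such as Nup210.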
